A study of Mus musculus with 19 samples.

Results

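H3K4me3 ChIP-seq of whole testis from adult male B6SPRTF1 hybrids was compared between B6/SPRT, which carry the wild-type B6 Prdm9 allele beside that of SPRT, and Hum/SPRT, in which the B6 copy encodes the DNA-binding array of human PRDM9. Both genotypes had a B6 mother and a SPRET/EiJ father, so they shared the 2 parental genomes and the SPRT Prdm9 allele, and differed by design only in the allele on the B6 chromosome. Members were all autosomal hotspots with H3K4me3 values in the tables of these genotypes, 34249 of the 43841 in the 3 genotypes assayed for H3K4me3, with 18522 in B6/SPRT and 15727 in Hum/SPRT. They rest on 10 of the 19 samples of the series, 2 ChIP and 2 input samples of B6/SPRT and 3 of each of Hum/SPRT, where a sample labelled rep1b stands beside rep1. Each hotspot carries 1 ChIP, 1 input and 1 homolog value per genotype, so there is no replicate error and no test between genotypes was possible, and the intervals given cover counting error only. Hotspots assigned to SPRT in both tables were paired where their centers lay within 500 bp of each other, and hotspots of the humanized allele (HUM) and of the B6 allele, which seldom coincide, were compared within their own tables.

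PRDM9 is a histone methyltransferase of meiotic cells whose zinc finger array binds a DNA motif and whose catalytic domain then marks the flanking nucleosomes with H3K4me3 and H3K36me3. The marked sites become the hotspots of programmed double-strand breaks, and DMC1, the recombinase loaded on the resected ends, marks those that are cut. In a hybrid, SNPs assign each read to a homolog, so the share of H3K4me3 reads from the B6 chromosome (the B6 fraction) shows whether PRDM9 marked both homologs or mainly one of them. Binding motifs erode over evolution in the lineage that carries an allele, and the human array has no such history in either mouse genome.

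H3K4me3 coverage was deeper in Hum/SPRT. Median ChIP coverage per hotspot was 284 reads in Hum/SPRT and 132 in B6/SPRT, and median input coverage was 26 and 19 reads, so the level was taken as ChIP over input and compared as percentile ranks within a table. Fractions were used at hotspots with 50 or more SNP-carrying reads, 97.9% of those in Hum/SPRT and 95.7% in B6/SPRT. In whole testis, a larger share of cells that carry the mark and more of the mark per cell cannot be told apart. At hotspots labelled KO, which are cut without PRDM9, the median rank was 1.92 of 100 in Hum/SPRT (n = 75) and 1.54 in B6/SPRT (n = 50). Most of those listed thus ranked low, but they were thinly covered. Their median input was 11 reads in Hum/SPRT and 12.5 in B6/SPRT, against 27 and 19 at SPRT hotspots. Median SNP-carrying reads were 8 and 18, against 459 and 282. The part of this thin coverage in the low ranks was not tested. Above the SPRT median of their table were 7 KO hotspots in B6/SPRT and 8 in Hum/SPRT. Of these, 3 in each table lay within 1000 bp of a gene start, where H3K4me3 is found independently of PRDM9 and the median rank was 99.95 in B6/SPRT and 99.99 in Hum/SPRT.

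Few of these hotspots lay at promoters. Within 1000 bp of a RefSeq gene start lay 61 of 4308 HUM hotspots (1.42%, 95% Wilson interval 1.104 to 1.81%), 64 of 3963 B6 hotspots (1.61%, interval 1.27 to 2.06%) and, in B6/SPRT, 140 of 8910 SPRT hotspots (1.57%). Centers inside a protein-coding gene were more frequent for HUM (59.3%, interval 57.8 to 60.7%) than for B6 hotspots (56.3%, interval 54.7 to 57.8%), and SPRT hotspots had the lowest share of the 3 alleles, at 53.1% in Hum/SPRT and 53.2% in B6/SPRT. A center fell inside the 300 bases of a promoter window, from 250 before to 50 after a gene start, at 6 HUM, 9 B6 and 16 SPRT hotspots, and these are the ones whose sequence can be shown. The strongest of each allele by ChIP over input follows, 5′ to 3′ on the strand of the gene, from RefSeq on GRCm38.p6, so that the DNA at the hotspot center can be seen. Capitals mark the 21 bases around the hotspot center.

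Gm31939: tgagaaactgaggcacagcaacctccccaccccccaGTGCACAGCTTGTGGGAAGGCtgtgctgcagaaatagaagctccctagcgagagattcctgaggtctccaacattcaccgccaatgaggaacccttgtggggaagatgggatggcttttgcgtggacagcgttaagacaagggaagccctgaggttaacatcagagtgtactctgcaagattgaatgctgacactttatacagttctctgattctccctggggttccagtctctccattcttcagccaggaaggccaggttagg
Gm35726: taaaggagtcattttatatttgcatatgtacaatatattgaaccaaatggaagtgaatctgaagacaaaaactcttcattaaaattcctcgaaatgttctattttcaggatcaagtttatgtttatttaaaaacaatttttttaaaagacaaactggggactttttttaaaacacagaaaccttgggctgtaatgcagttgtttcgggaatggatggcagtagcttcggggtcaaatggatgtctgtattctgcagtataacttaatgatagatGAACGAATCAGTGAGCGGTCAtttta
Gm36905: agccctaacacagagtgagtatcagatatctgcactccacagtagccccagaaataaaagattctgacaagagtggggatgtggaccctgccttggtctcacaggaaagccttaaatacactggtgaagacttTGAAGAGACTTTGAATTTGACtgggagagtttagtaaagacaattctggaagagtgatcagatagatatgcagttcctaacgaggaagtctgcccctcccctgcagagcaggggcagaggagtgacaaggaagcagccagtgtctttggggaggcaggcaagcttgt

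The window of Gm31939 (chr12:29937256-29937555, minus strand), a HUM hotspot, had 1418 ChIP reads on 31 input reads, a rank of 99.4 in Hum/SPRT, and a B6 fraction of 62.8% (interval 61.0 to 64.6%). That of Gm35726 (chr3:129105751-129106050, minus strand), a B6 hotspot, had 370 ChIP reads on 21 input reads, a rank of 92.5 in B6/SPRT, and a B6 fraction of 66.6% (interval 62.6 to 70.4%). That of Gm36905 (chr16:91995971-91996270, minus strand), an SPRT hotspot, had 562 ChIP reads on 22 input reads, a rank of 98.5 in B6/SPRT, and a B6 fraction of 66.6% (interval 63.7 to 69.4%). All 3 were matched, with more reads from the B6 chromosome. Hotspots near gene starts ranked higher than those away from them. Median ranks were 63.5 and 46.6 for B6, 70.1 and 58.8 for HUM, and 76.2 and 64.4 for SPRT in B6/SPRT. The part of promoter H3K4me3 in the values of these 3 windows was not tested. The letters are those of the B6 reference, and the SPRT homolog can differ from them.

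The SPRT allele is common to both hybrids, so its hotspots show how far H3K4me3 repeats when the partner allele is exchanged. Its hotspots kept their order of H3K4me3. Of 9247 SPRT hotspots in B6/SPRT and 9243 in Hum/SPRT, 9128 formed pairs, with a median distance of 45 bp between centers. Spearman's rho between genotypes was 0.876 for ChIP over input and 0.961 for ChIP coverage alone (n = 9128 hotspots, which share libraries and are not replicates). Input coverage itself did not follow the same order, with a rho of -0.06 between the tables, and in Hum/SPRT input and ChIP coverage were unrelated across hotspots (rho 0.005, against 0.404 in B6/SPRT). Scatter was wider after dividing by input, whose median at these pairs was 19 reads in B6/SPRT and 27 in Hum/SPRT. The median absolute rank difference was 8.25 points for ChIP over input and 4.35 points for ChIP alone. The part of low input coverage in this was not tested.

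**Figure D1:**
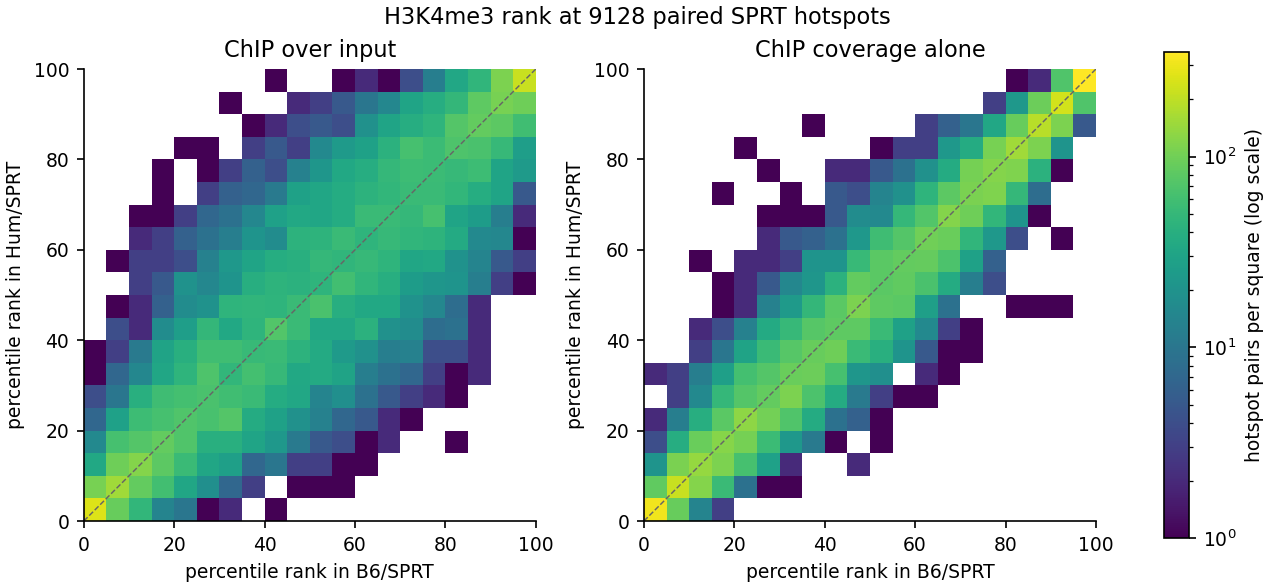
H3K4me3 percentile rank of the 9128 paired SPRT hotspots in B6/SPRT (x axis) and Hum/SPRT (y axis), among all 9665 paired hotspots of each table, for ChIP over input (left) and ChIP coverage alone (right); colour gives the number of pairs per square on a log scale. Pairs lie along the dashed diagonal in both panels and closer to it for ChIP alone (rho 0.961) than for ChIP over input (rho 0.876).

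Of the SPRT pairs, 686 (7.52%) ranked at least 20 points higher in Hum/SPRT and 768 (8.41%) at least 20 points lower, against a background over all 9665 paired hotspots of 8.14% and 8.53%. SPRT pairs make up most of that background, and the shares differ little from it. By ChIP coverage alone, 124 ranked at least 20 points higher and 73 lower (background 2.07% and 1.09%). The 3 largest gains and the 3 largest losses by ChIP over input were all smaller by ChIP alone. At the hotspot 695 kb from Gm30770 (chr11:13246805), ChIP coverage went from 179 reads on 11 input reads in B6/SPRT to 271 on 39 in Hum/SPRT, so its rank fell by 57.8 points by ChIP over input and fell by 5.09 points by ChIP alone. In Pear1 (chr3:87766163), which encodes a platelet endothelial receptor, it went from 167 reads on 24 input reads to 445 on 19, a gain of 58.6 points by ChIP over input and 30.7 points by ChIP alone. The gains in Pbx4 (chr8:69870794), a homeobox gene, and in the lncRNA gene Gm39438 (chr9:113445220) were 25.8 and 29.1 points by ChIP alone, and the losses at the hotspots 589 kb from Sorcs3 (chr19:49394534) and 23.3 kb from Tent5a (chr9:85350429) were -6.54 and -11.8 points. All 6 were picked for their size of change among 5912 pairs with 10 or more input reads and 200 or more SNP-carrying reads in both tables.

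The top of the order was kept better by ChIP coverage than by ChIP over input. Of the 431 SPRT pairs ranked at 95 or above in B6/SPRT by ChIP over input, 215 (49.9%) did so in Hum/SPRT and 62 (14.4%) ranked below 85. By ChIP coverage alone, 354 of 430 (82.3%) did so and 0 ranked below 85. The 3 strongest, 3.39 kb from Fgfr4 (chr13:55172148), a fibroblast growth factor receptor gene, in Asap3 (chr4:136238373), which encodes an Arf GTPase-activating protein, and in Mrps34 (chr17:24896205), a gene of the mitochondrial ribosome, all ranked between 99.89 and 99.99 in each table. The hotspot near Fgfr4 had 1584 ChIP reads on 29 input reads in B6/SPRT and 1872 on 23 in Hum/SPRT. Its B6 fraction was 57.2% (interval 54.9 to 59.6%) in B6/SPRT and 55.1% (interval 53.0 to 57.2%) in Hum/SPRT, so the intervals overlap. Across the pairs, the scatter of the log2 ratio of ChIP coverage was 0.27 (SD, after centring on the median), falling from 0.39 in the tenth of pairs with the least coverage to 0.16 in the tenth with the most. The centred median ran from 0.17 in the first of these to -0.12 in the last. By ChIP coverage the range between weak and strong SPRT hotspots was thus narrower in Hum/SPRT. By ChIP over input, quartiles of all SPRT hotspots were 6.09 and 13.5 in B6/SPRT and 6.66 and 16.1 in Hum/SPRT. On that scale the range was not narrower in Hum/SPRT. Median rank differences in the groups of pairs with the least and the most coverage were -0.10 and 0.53 points by ChIP over input. By ChIP coverage they were 0.07 and -0.02 points. Ranks within a table keep only the order of hotspots, so they cannot show whether the range was narrower. On single autosomes rho lay between 0.860 and 0.897 for ChIP over input and between 0.943 and 0.967 for ChIP alone.

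The homolog carrying the mark at SPRT hotspots was also nearly the same in both hybrids. Among 8934 pairs with 50 or more SNP-carrying reads in both tables, the median B6 fraction was 69.4% in B6/SPRT and 69.3% in Hum/SPRT, Pearson's r was 0.974, and the median absolute difference was 2.63 percentage points. Matched hotspots, with 25 to 75% of reads from the B6 chromosome, made up 49.5% of them in B6/SPRT (interval 48.4 to 50.5%) and 49.9% in Hum/SPRT (interval 48.9 to 50.9%). Only 6.83% and 6.28% had under 25%, and 43.7% and 43.8% had over 75%, so one-sided SPRT hotspots were marked mostly on the B6 chromosome. Of these pairs, 94.1% stayed in the same class, 246 were matched in B6/SPRT alone and 284 in Hum/SPRT alone, and none went from under 25% to over 75% or the reverse.

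**Figure D2:**
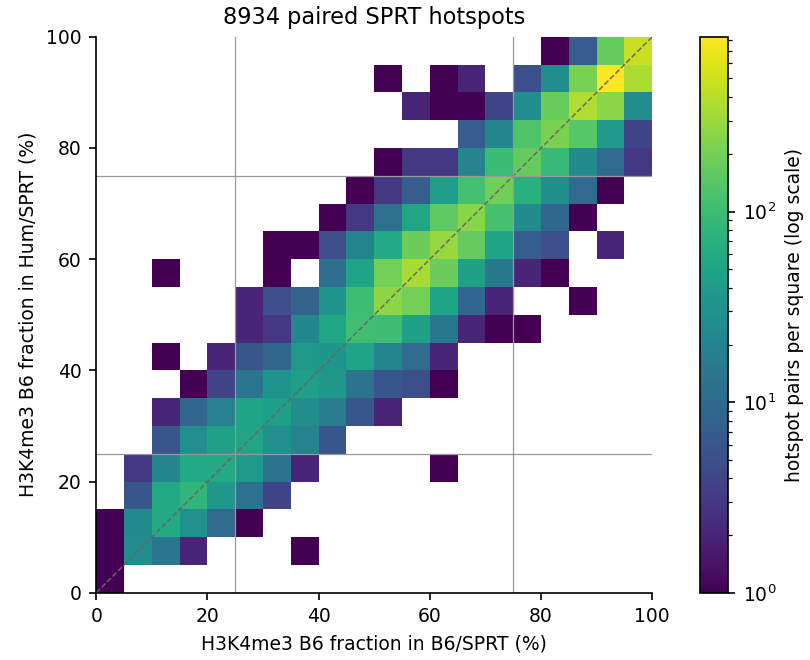
H3K4me3 B6 fraction of the 8934 SPRT pairs in B6/SPRT (x axis) and Hum/SPRT (y axis), in percent; colour gives the number of pairs per square on a log scale, the dashed line is equality and grey lines mark 25 and 75%. Pairs follow the diagonal (Pearson's r 0.974), and the corners for opposite homologs are empty.

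The B6 fraction was at least 10 points higher in Hum/SPRT at 297 pairs (3.32%) and at least 10 points lower at 258 (2.89%), against 3.87% and 3.21% of all paired hotspots. The 95% intervals of the 2 genotypes were apart at 535 pairs (5.99%), against a background of 7.09%. Such differences were most frequent at shallow hotspots. Where the shallower genotype had 50 to under 100 SNP-carrying reads, 24.1% of pairs differed by 10 points or more, and with 400 or more reads 1.55% did. A few deep hotspots still differed widely.

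In Pdcd11 (chr19:47125708), whose product takes part in ribosomal RNA processing, the B6 fraction was 53.7% (interval 49.7 to 57.7%) in B6/SPRT and 90.4% (interval 87.2 to 92.8%) in Hum/SPRT, and ChIP coverage was 431 and 280 reads. In Msi2 (chr11:88454069), which encodes a Musashi RNA-binding protein, the fraction was 65.0% and 92.9%, with 381 and 349 ChIP reads. At both, coverage was lower in the deeper Hum/SPRT table while the fraction was higher. The 3 largest falls showed the opposite combination. At the hotspot 1.005 kb from Acaca (chr11:84402656), the gene of acetyl-CoA carboxylase, the fraction was 93.5% (interval 90.9 to 95.4%) in B6/SPRT and 63.1% (interval 60.1 to 65.9%) in Hum/SPRT, and ChIP coverage was 315 and 746 reads, a gain of 13.2 rank points by ChIP alone. In Wdr25 (chr12:108964474) it was 90.8% and 65.0%, and 52.3 kb from Dad1 (chr14:54183182), which encodes an oligosaccharyltransferase subunit, 53.7% and 32.0%, with ChIP ranks 13.5 and 17.0 points higher in Hum/SPRT. These pairs were chosen for their difference.

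The DMC1 B6 fraction, which the choice of these pairs did not use, was set beside these differences. Where the H3K4me3 fraction was at least 10 points higher in Hum/SPRT, the median DMC1 difference was 3.19 points, higher at 122 of 198 pairs with a DMC1 fraction in both. Where it was at least 10 points lower, the median DMC1 difference was -5.17 points, lower at 119 of 171 pairs (69.6%). At the 6508 pairs within 10 points the median was -1.25 points, and the DMC1 fraction was higher at 30.0% and lower at 69.2%. The share that was higher at the first set (61.6%) thus exceeded that among unmoved pairs, and the share that was lower at the second set was near it. The number of DMC1 reads behind these fractions is unknown.

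Nearby hotspots of the exchanged allele went with small shifts of rank by ChIP over input, which ChIP coverage alone mostly did not show. No SPRT pair had a B6 hotspot center closer than 1345 bp or a HUM center closer than 1148 bp. The median rank difference, Hum/SPRT minus B6/SPRT, was 3.78 points at the 168 SPRT pairs with a HUM hotspot within 5000 bp, 1.03 points at the 155 with a B6 hotspot within 5000 bp, and -0.13 points at the 8799 with neither, while 6 pairs had both. By ChIP coverage alone the difference was -0.10 points at the pairs near a HUM hotspot, -0.38 near a B6 hotspot and -0.35 with neither. At this distance the shifts were thus not seen by ChIP coverage. At the 36 pairs with a HUM hotspot within 2 kb the difference was 6.90 points by ChIP over input and 2.85 points by ChIP coverage, against -0.10 and -0.35 points at pairs with neither that near. At the 24 pairs with a B6 hotspot within 2 kb it was 2.18 and -1.94 points, of opposite sign.

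SPRT hotspots of CAST/SPRT, the hybrid with the CAST array in place of that of B6, give a further reading of the same allele. Over the 4931 SPRT hotspots called in all 3 tables, rho for ChIP coverage was 0.959 between B6/SPRT and Hum/SPRT, 0.940 between B6/SPRT and CAST/SPRT, and 0.953 between Hum/SPRT and CAST/SPRT. By ChIP over input these were 0.836, 0.856 and 0.864, so the order of the 3 comparisons depended on the scale. The median B6 fraction of the 4781 with enough reads was 78.4% when the partner allele was B6, 79.1% when it was the humanized allele and 83.7% when it was CAST. The fraction was thus higher in the CAST hybrid by a median of 2.35 points over B6/SPRT and 2.56 points over Hum/SPRT, whereas the other 2 differed by a median of -0.07 points.

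The allele on the B6 chromosome was the part that was exchanged, and its hotspots ranked differently in H3K4me3. In B6/SPRT, the 4122 B6 hotspots had a median of 123 ChIP reads and 18 input reads, a ratio of 6.73 (quartiles 4.37 and 10), against 9.32 (6.09 and 13.5) at SPRT hotspots. In Hum/SPRT, the 4485 HUM hotspots had a median of 318 ChIP reads and 26 input reads, a ratio of 12.6 (8.29 and 18.6), against 10.7 (6.66 and 16.1) at SPRT hotspots. B6 hotspots were thus weaker than the SPRT hotspots of their testes, with a median log2 ratio -0.47 from theirs, and HUM hotspots stronger, at 0.24. Of B6 hotspots, 29.5% (interval 28.1 to 30.9%) exceeded the SPRT median of their table, and of HUM hotspots 61.0% (interval 59.6 to 62.5%). The share was higher for HUM on 19 of 19 autosomes, where it lay between 52.3% and 69.7%, against 22.6% and 36.1% for B6.

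By DMC1 signal the order of HUM and SPRT hotspots was the opposite of that by H3K4me3, while that of B6 and SPRT hotspots was the same. The median DMC1 signal of HUM hotspots was 33.8, against 55.0 at the SPRT hotspots of the same table, and that of B6 hotspots was 43.4, against 104 at SPRT hotspots. Which hotspots are listed depended on DMC1, and the H3K4me3 of binding sites without a called hotspot was not analysed here. The share above the SPRT median was 31.6 points higher for HUM than for B6 over all hotspots. Among the 3000 hotspots of each allele with the largest DMC1 signal it was 33.8 points higher. There the SPRT median was that of the 3000 SPRT hotspots kept, so these values do not share a reference. The cut kept a smaller part of SPRT hotspots than of HUM or B6 hotspots.

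The strongest HUM hotspots lay in Hlcs (chr16:94176872), the gene of holocarboxylase synthetase, with 768 ChIP reads on 11 input reads, 12.4 kb from Asb17 (chr3:153831878), with 826 on 13, and in Sh3glb2 (chr2:30345848), which encodes an endophilin, with 1203 on 19. Their B6 fractions were 53.6% (interval 50.8 to 56.3%), 57.2% (interval 54.6 to 59.8%) and 58.5% (interval 56.2 to 60.8%), so all 3 were matched. The strongest B6 hotspots lay in the lncRNA genes Gm36134 (chr4:120243182), with 1240 ChIP reads on 26 input reads, and 4933433N18Rik (chr13:50137531), with 547 on 13, and in Purb (chr11:6474798), which encodes a purine-rich element binding protein, with 1653 on 41. Their B6 fractions were 58.5% (interval 55.2 to 61.7%), 35.2% (interval 31.3 to 39.3%) and 49.6% (interval 46.8 to 52.5%). They were matched as well. The DMC1 fraction was 30.3% at Gm36134, also within the matched range, and 7.69% at Purb, outside it.

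The homolog carrying the mark differed between the exchanged alleles. The median B6 fraction was 37.3% (quartiles 20.8 and 54.8%) at 3973 B6 hotspots and 60.2% (quartiles 48.7 and 78.0%) at 4424 HUM hotspots. B6 hotspots fell under 25% in 32.5% of cases (interval 31.1 to 34.0%) and over 75% in 7.50% (interval 6.72 to 8.36%), so their one-sided hotspots were marked mainly on the SPRT chromosome. HUM hotspots fell under 25% in 5.72% (interval 5.07 to 6.44%) and over 75% in 28.0% (interval 26.7 to 29.3%), so theirs were marked mainly on the B6 chromosome. The few KO hotspots with enough reads, not placed by either allele, also leaned to the B6 chromosome. Their median B6 fraction was 55.0% in Hum/SPRT (n = 19) and 59.5% in B6/SPRT (n = 11). The part of such a baseline in the fractions of HUM and B6 hotspots was not tested. Matched hotspots were 59.98% (interval 58.4 to 61.5%) of B6 and 66.3% (interval 64.9 to 67.7%) of HUM hotspots. That difference of 6.34 points (interval 4.27 to 8.40) held its sign on 16 of 19 autosomes, from -3.36 points on chromosome 17 to 14.3 points on chromosome 11, but turned to -3.56 points with matched set at 10 to 90%.

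Examples of each side are strong hotspots with narrow intervals. The strongest B6 hotspot under 25%, 1.75 kb from Wnt1 (chr15:98788102), a signalling ligand gene, had 487 ChIP reads on 17 input reads and a B6 fraction of 6.29% (interval 4.88 to 8.08%). The strongest over 75%, 20.2 kb from Diaph3 (chr14:87161471), a formin gene, stood at 75.6% (interval 72.1 to 78.8%), at the edge of the class. For HUM the strongest over 75%, in Trps1 (chr15:50889155), which encodes a GATA-type repressor, had 1700 ChIP reads on 28 input reads and 98.5% (interval 95.8 to 99.5%) on the B6 chromosome. That fraction rests on 204 SNP-carrying reads, far fewer than its ChIP reads. At 94.4% of Hum/SPRT hotspots SNP-carrying reads outnumbered ChIP reads, so its fraction is less secure than its level. The strongest HUM hotspot under 25%, in Il34 (chr8:110757641), a cytokine gene overlapped by Gm15894, stood at 20.7% (interval 18.2 to 23.4%).

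The assignment of hotspots to alleles bears on this contrast. Unassigned hotspots were 27.6% of the B6/SPRT table and 12.2% of the Hum/SPRT table, and most had no partner within 500 bp in the other table, 4710 of 5103 and 1544 of 1924. Their B6 fractions leaned the other way from those of the assigned hotspots. In B6/SPRT the median was 58.7% at 4321 unassigned hotspots without a partner, against 37.3% at B6 hotspots. In Hum/SPRT it was 27.1% at 1414, against 60.2% at HUM hotspots. Adding them to their table's exchanged allele, a step chosen after seeing the data, gave matched shares of 62.1% in B6/SPRT and 62.4% in Hum/SPRT, a difference of 0.294 points, and medians of 50% and 54.7%. The excess in H3K4me3 level remained, with 52.5% of the enlarged HUM set and 19.5% of the enlarged B6 set above the SPRT median of their table.

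**Figure D3:**
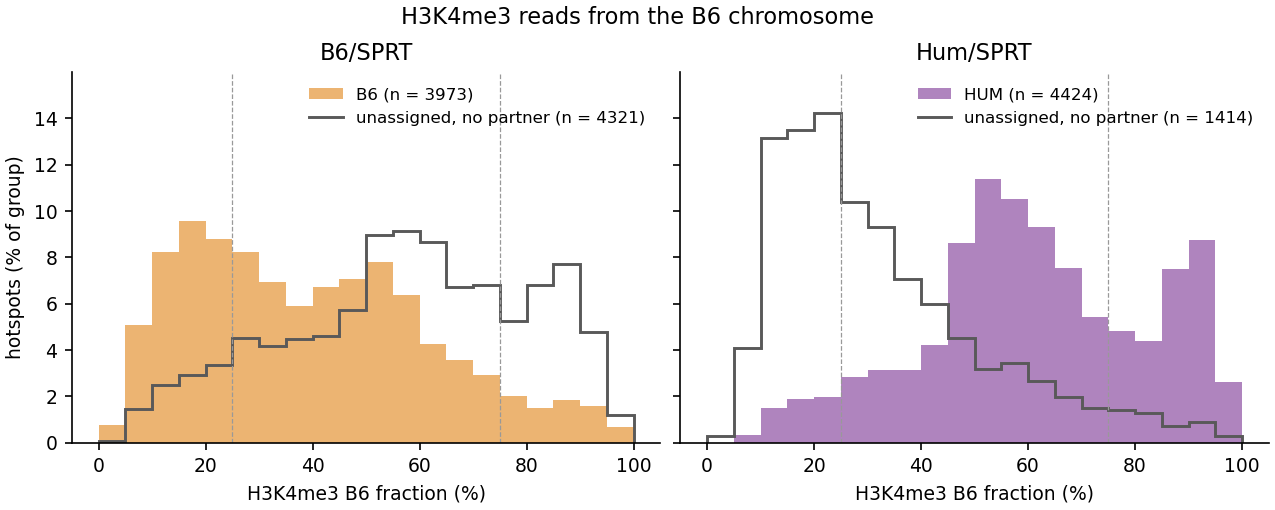
Distribution of the H3K4me3 B6 fraction (x axis, percent, 5-point bins; y axis, percent of the group) for B6 hotspots of B6/SPRT (left, orange) and HUM hotspots of Hum/SPRT (right, purple), with unassigned hotspots that have no partner in the other table (grey line); dashed lines mark 25 and 75%. B6 hotspots lean to low fractions (median 37.3%) and HUM hotspots to high ones (median 60.2%), and the unassigned hotspots lean the other way in each table (58.7 and 27.1%).

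The strong hotspots differed most, with or without the unassigned. Hotspots of each allele were split into 4 groups of about equal size by ChIP over input. Of the 1106 HUM hotspots with the highest level, 83.1% were matched (interval 80.8 to 85.2%), against 56.7% (interval 53.6 to 59.7%) of the 995 B6 hotspots with the highest level. In the lowest groups the order was turned, with 55.3% (interval 52.4 to 58.2%) for HUM and 71.0% (interval 68.1 to 73.7%) for B6. With the unassigned hotspots added, the highest groups stood at 79.8% for HUM (interval 77.7 to 81.8%) and 59.4% for B6. Among HUM hotspots the share over 75% went from 36.8% in the lowest to 13.7% in the highest group. Among B6 hotspots the share under 25% went from 19.2% to 38.9%. The median number of SNP-carrying reads went from 262 to 934 for HUM and from 99 to 398 for B6 across these groups, and its part in the pattern was not tested. Weighted by ChIP over input, the matched share was 13.8 points higher for HUM than for B6.

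**Figure D4:**
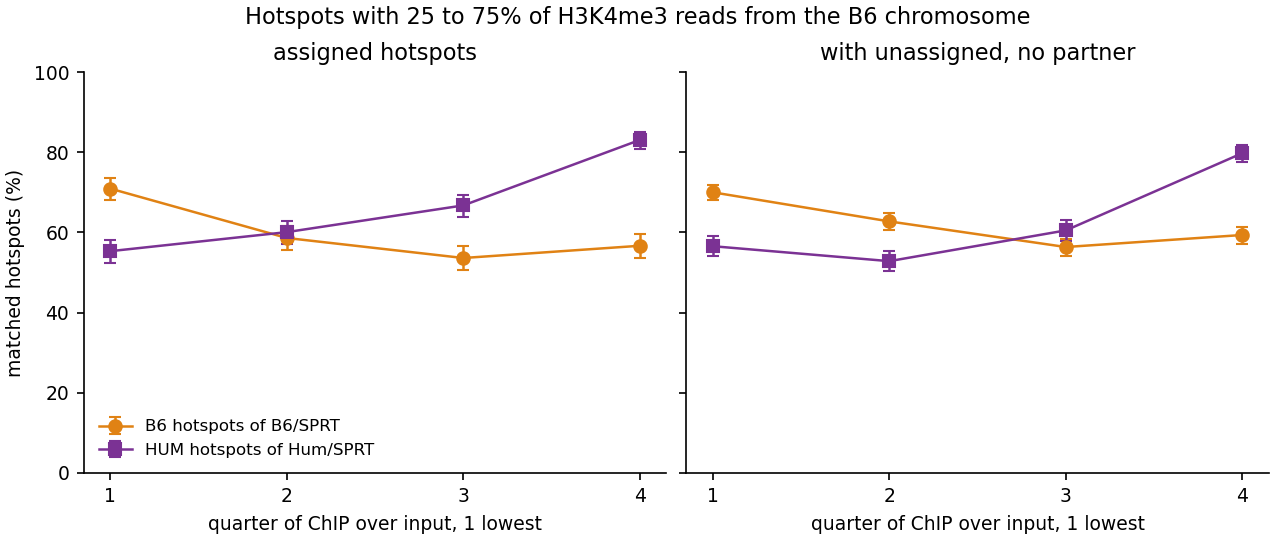
Share of matched hotspots (y axis, percent, with 95% Wilson intervals) in 4 groups of about equal size by ChIP over input (x axis, 1 lowest) for B6 hotspots of B6/SPRT (orange circles) and HUM hotspots of Hum/SPRT (purple squares), for assigned hotspots (left) and with unassigned hotspots that have no partner added (right). In the highest group HUM stood at 83.1% and B6 at 56.7% (left), and at 79.8 and 59.4% (right).

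Level and homolog were linked in a different way for each allele. Of HUM hotspots, those that were matched had the highest level, with a median ratio of 14.0 and 67.7% above the SPRT median (interval 66.0 to 69.4%), against 51.0% of those under 25% and 49.5% of those over 75%. Of B6 hotspots, those under 25% had the highest level, with a median ratio of 7.91 and 36.4% above the SPRT median (interval 33.8 to 39.0%), against 28.8% of the matched and 18.1% of those over 75%. SPRT hotspots under 25%, marked mainly on the chromosome of SPRT itself, were weak in both tables, with 24.6% in B6/SPRT and 27.2% in Hum/SPRT above the SPRT median.

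A mark on both homologs did not go with breaks on both to the same extent. Of matched HUM hotspots with a DMC1 fraction, 1385 of 1976 (70.1%, interval 68.0 to 72.1%) were also matched by DMC1, and of matched B6 hotspots 612 of 1314 (46.6%, interval 43.9 to 49.3%). A further 47.2% of these B6 hotspots had a DMC1 fraction under 25%. SPRT hotspots gave 67.9% in B6/SPRT and 70.1% in Hum/SPRT. One-sided hotspots with a DMC1 fraction were mostly cut where they were marked. A DMC1 fraction was given at 901 of 1292 B6 hotspots under 25%, and 99.7% of these were in the same class by DMC1. For HUM hotspots over 75% it was given at 1130 of 1237, with 96.4% in the same class.

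As a reference not placed by either allele, the H3K4me3 B6 fraction at KO hotspots with enough reads had a median of 59.5% in B6/SPRT (n = 11) and 55.0% in Hum/SPRT (n = 19). Unassigned hotspots within 1000 bp of a gene start gave 58.5% (n = 120) and 51.2% (n = 50). Their allele is undetermined, so hotspots of either allele can be among them and they are not such a reference. Under 25% lay 5.83% of them in B6/SPRT and 16% in Hum/SPRT. The 37 KO hotspots paired between tables had median ChIP coverage of 11 reads in B6/SPRT and 22 in Hum/SPRT.

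At 21 positions a B6 hotspot of B6/SPRT and a HUM hotspot of Hum/SPRT lay within 500 bp, of 4122 and 4485. At these places hotspots of both arrays can be set beside each other on nearby DNA, with a median of 161 bp between centers. Their number depends on the distance allowed, and they were looked at after the tables had been seen. ChIP over input was higher in Hum/SPRT at 21 of 21, though the 2 tables are not on 1 scale. Over all pairs the median ratio was also higher in Hum/SPRT, 10.8 against 9.35. The share of all pairs with a higher ratio in Hum/SPRT was not computed, so this count lacks a background. The rank among paired hotspots was at least 20 points higher at 12, against 8.14% of all pairs, and at least 20 points lower at 0. The median rank was 22.2 in B6/SPRT and 72.4 in Hum/SPRT. The B6 fraction was at least 10 points higher at 9 and lower at 4 of the 19 positions with enough reads (background 3.87% and 3.21%), the intervals were apart at 14 (background 7.09%), and the median absolute difference was 13.6 points, against 2.63 at SPRT pairs. The fraction was nearer 50% in Hum/SPRT at 13 of 19, a count for which the share over all pairs was not computed. Matched positions numbered 11 in B6/SPRT and 12 in Hum/SPRT, against 49.9% and 50.2% of all pairs.

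At the position 42.5 kb from A930027H12Rik (chr15:87054972) the B6 fraction was 10.7% (interval 7.79 to 14.4%) in B6/SPRT and 51.2% (interval 48.0 to 54.4%) in Hum/SPRT, with 214 and 595 ChIP reads. In Per1 (chr11:69105652), a gene of the circadian clock, it was 18.6% (interval 14.8 to 23.0%) and 47.8% (interval 44.9 to 50.7%), with 274 and 945 ChIP reads. Both went from the SPRT chromosome to the middle. The change went the other way 0.931 kb from Gm33086 (chr17:7575216), from 43.0% (interval 39.4 to 46.7%) to 92.6% (interval 90.8 to 94.1%), with 330 and 448 ChIP reads. In Rbfox2 (chr15:77122520), a splicing regulator gene, it went from 56.0% to 86.9%. In Ripor2 (chr13:24560230), the fraction was 88.0% (interval 80.2 to 93%) in B6/SPRT and 55.8% (interval 49.7 to 61.7%) in Hum/SPRT. In Mov10l1 (chr15:89019683), which encodes a helicase of the piRNA pathway of male germ cells, it was 70.2% and 86.4%. No common direction joined the positions, whose centers were up to 476 bp apart.

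**Figure D5:**
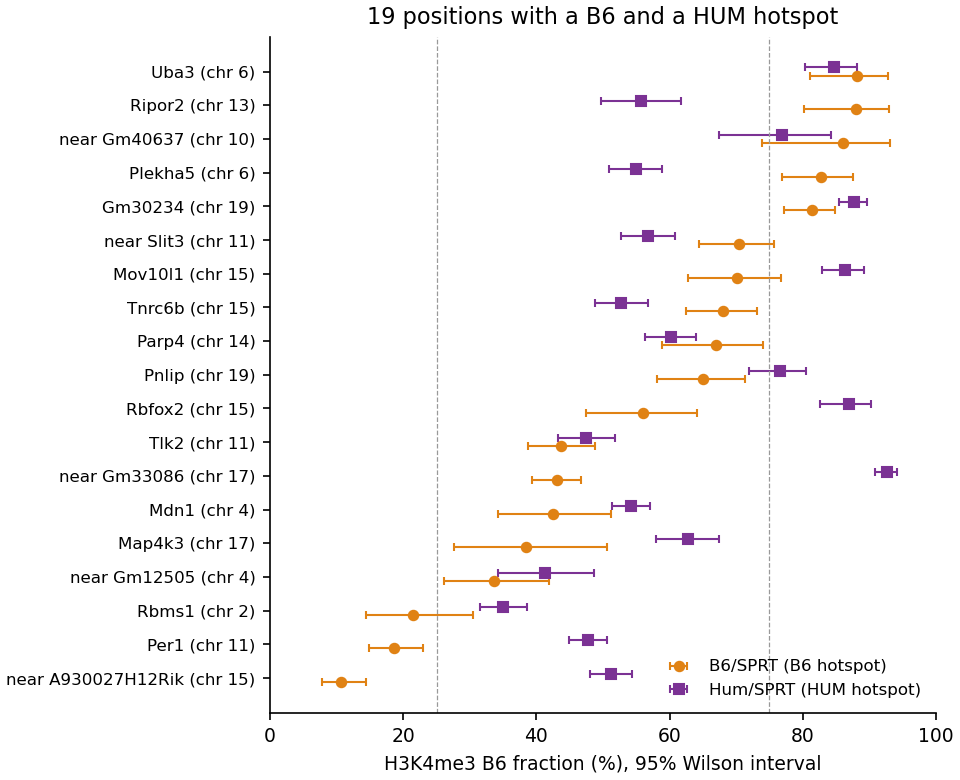
H3K4me3 B6 fraction (x axis, percent, with 95% Wilson intervals) at the 19 positions with a B6 hotspot in B6/SPRT (orange circles) and a HUM hotspot in Hum/SPRT (purple squares) within 500 bp and 50 or more SNP-carrying reads in both; dashed lines mark 25 and 75%. Intervals are apart at 14 of the 19 positions, and the fraction was at least 10 points higher in Hum/SPRT at 9 and lower at 4.

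Hotspots unassigned in both tables repeated less well than SPRT pairs. At 294 such pairs rho was 0.801 for ChIP coverage and Pearson's r of the B6 fraction 0.867 (n = 274). Of these pairs, 22.4% ranked at least 20 points higher and 10.9% lower in Hum/SPRT (background 8.14% and 8.53%), and the B6 fraction was at least 10 points higher at 15.3% and lower at 7.30% (background 3.87% and 3.21%). Hotspots named SPRT in one table and unassigned in the other, 185 pairs, had a rho of 0.801 for ChIP coverage. SPRT hotspots without any partner were rare, 33 in B6/SPRT and 16 in Hum/SPRT, and 24.2% and 31.2% of them exceeded the SPRT median, so these were mostly weak.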

How the data were processed

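H3K4me3 ChIP-seq and input libraries of whole testis were sequenced by the authors. The submitters' processing notes name BWA and mm10, whose autosomes are those of GRCm38. Hotspots were called by the authors from DMC1 single-stranded DNA, assigned to a PRDM9 allele by comparison with other mice, and reads were assigned to homologs by SNPs of SPRET/EiJ. The deposited table of each genotype gives ChIP and input coverage and SNP-carrying reads as counts in whole numbers, enrichment as a ratio (how it was formed is not given in the sources used here), the fraction of H3K4me3 and of DMC1 reads from the B6 chromosome, and a DMC1 signal whose scaling is not stated. The authors deposited 1 value per hotspot and genotype, taken here as pooled over samples. SNP-carrying reads exceeded ChIP coverage at 94.9% of hotspots in B6/SPRT and 94.4% in Hum/SPRT, and how they were counted is not given in the sources used here. Not used here were 9 more columns, which hold p-values and whether a hotspot is shared, and the tables of the STUS crosses.

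From these, ChIP over input, percentile ranks, B6 fractions and Wilson 95% intervals were computed for the 19 autosomes (scipy 1.17.1, numpy 2.4.6 and pandas 2.3.3 under Python 3.11.15) and plotted with matplotlib 3.10.9. Pairs were mutual nearest centers within 500 bp, ranked among all 9665 pairs. Calls were 20 rank points and 10 points of fraction. Ranks remove the depth of a table, and a fraction from 50 reads is coarse, so differences were read beside depth. Hotspots named were the strongest of each allele and class and the strongest and most changed SPRT pairs, with 10 or more input and 200 or more SNP-carrying reads, off chromosome 18, for which no gene starts were used here. A hotspot that this rule names is not reported here. Genes are those of RefSeq on GRCm38.p6. No test was made, since no genotype has replicate values. Members and lists were chosen with earlier results of these data known, and the promoter windows, the shared positions, the CAST/SPRT table and the strata by depth were added after seeing the data. The computations were tested on simulated data.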

Additional observations from a re-analysis of the deposited data

How the results depend on the processing

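No paired analysis was possible because each genotype has 1 pooled value per hotspot, and for the same reason no sample could be left out in turn. Over the alternatives tried, 48 values (47 planned, 1 added after seeing the data) stayed within the 95% interval of the value reported or, for counts of hotspots, within 1.5 times of it, 29 moved further and 1 reversed. Some of the 48 could not move. The share of SPRT pairs differing by 10 points does not use the matched range. The share above the SPRT median does not change when unassigned hotspots are left out. Within its interval, the difference in matched share of SPRT pairs, 0.425 points, also changed sign, to -0.407 points with at least 200 reads and -0.10 points for a range of 40 to 60%, and the rank difference near B6 hotspots was 2.18 points within 2 kb. With 20 or more input reads in both tables, rho at SPRT pairs was 0.922, with 172 pairs higher and 164 lower. It was 0.894 by the deposited enrichment, and by ChIP coverage alone 0.961, with 124 higher and 73 lower. The share of SPRT pairs whose fraction differed by 10 points or more was 6.21%, and 4.68% and 2.90% with at least 100 or 200 SNP-carrying reads. The share above the SPRT median, HUM minus B6, was 28.5 points by ChIP alone. It was 33.8 points among the 3000 hotspots of each allele of largest DMC1 signal, with the SPRT median taken over those kept. The difference in median rank, 12.6 points, was 10.6 by ChIP alone, 20.5 without unassigned hotspots and 17.3 with unassigned hotspots lacking a partner added. The difference in matched share was 8.61 and 12.2 points with at least 100 or 200 reads, 13.8 points when weighted, -3.56 points for a range of 10 to 90% and 0.294 points with those unassigned hotspots, an alternative chosen after seeing the data. It left 4.69 of the 22.9 points between the median fractions. Partners within 250 bp left 455 and 436 SPRT hotspots of B6/SPRT and Hum/SPRT in 1 table only, with 13 B6 and 13 HUM hotspots paired. Within 1000 bp these were 20, 6, 39 and 42. The rank difference near HUM hotspots was 6.90 points within 2 kb and 0.967 points within 20 kb. The cause of these shifts was not tested. Depth limits single fractions, and 24.1% of the shallowest SPRT pairs differed by 10 points or more.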
